A study of Mus musculus with 12 samples.

Results

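MeVa2.2.dOVA was compared with MeVa2.2, the cell line whose name it extends, across all genes with enough counts to test. Both are mouse melanoma cell lines that the labels trace to skin and subcutaneous tumour and describe as wild type. Neither line was treated. Each was represented by 3 RNA-seq libraries, so that 6 of the 12 libraries in the series entered the comparison. The members were taken by cell line name from the sample titles. The other 6 libraries, of MeVa2.1.dOVA and MeVa2.1, were used for a shared estimate of the spread and for a test of differences between origins. The labels do not spell out dOVA, do not say whether a line is a clone, and do not say whether replicates came from separate cultures. The p-values therefore speak only to how far these libraries differ, and that variation could be technical.

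Interferons bind surface receptors that signal through Janus kinases to STAT and IRF transcription factors. These factors act at short promoter elements rich in GAAA repeats and switch on antiviral enzymes, guanosine triphosphate-binding proteins and the machinery that loads peptides on MHC class I, which is how a tumour cell displays antigen to cytotoxic T cells. Melanoma cells also move between a pigmented state, marked by melanin enzymes, and dedifferentiated states with mesenchymal features, in which the matrix, growth factor receptors and Wnt regulators differ.

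Interferon-inducible and MHC class I genes were among those that rose in MeVa2.2.dOVA against its parent, and matrix, Wnt regulator and adhesion genes were among those that fell. Many of these genes also differed between replicates of a line. Of 13985 genes tested, 278 changed (1.99% of those tested), at an adjusted p below 0.05 in the edgeR quasi-likelihood test. Of these, 59 were higher in MeVa2.2.dOVA (0.422%) and 219 were lower (1.57%), and 250 changed by at least 2-fold (1.79%). The median log2 fold change was 2.09 among the genes that rose, -3.04 among those that fell and -0.02 over all genes tested. Gene counts were 18543632, 18753182 and 33683165 in replicates 1, 2 and 3 of MeVa2.2.dOVA and 16896708, 18988498 and 26291546 in those of MeVa2.2. Values of single libraries are given in the order of replicates 1, 2 and 3, as CPM, the read count per 1000000 counts of effective library size.

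For most genes the replicates of a line lay at least as far apart as the line means. The median over genes of the within-line SD of log2 CPM was 0.36 in MeVa2.2.dOVA and 0.38 in MeVa2.2, and 0.32 in MeVa2.1.dOVA and 0.27 in MeVa2.1. The median absolute difference between the means of MeVa2.2.dOVA and MeVa2.2 was 0.33. Replicate 1 of MeVa2.2.dOVA differed from replicate 2 of MeVa2.2 by a median of 0.32, less than it differed from replicate 3 of its own line (0.46). Replicate 2 of MeVa2.2 in turn differed from the other libraries of its line by medians of 0.45 and 0.55. Replicate 3 of MeVa2.2.dOVA was nearer to replicate 3 of MeVa2.2 (0.35) than to either library of its own line (0.46 and 0.56). Replicates 1 and 2 of MeVa2.2.dOVA were nearest to each other (0.26). By this measure 3 of the 6 libraries had their nearest neighbour in the other line. By Pearson correlation of log2 CPM, of these only replicate 2 of MeVa2.2 did, with replicate 1 of MeVa2.2.dOVA (0.969). Replicate 3 of MeVa2.2.dOVA correlated best with replicate 1 of its own line (0.960). Replicate 3 of MeVa2.2 likewise did so with replicate 1 of its own line (0.966).

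How far the fold changes held against this spread was read gene by gene. In 2362 genes (16.9%) the 3 libraries of one line all lay above the 3 of the other, with 1072 higher in MeVa2.2.dOVA (7.67%) and 1290 lower (9.22%). If the order of the libraries were random, such a separation in either direction would have a probability of 0.1 for a gene. In 1413 genes (10.1%) the difference between the line means also exceeded the larger of the within-line ranges. All 278 called genes were free of overlap, and in 276 of them, 59 higher and 217 lower, the difference exceeded the larger range. The nearest libraries of the lines were at least 2-fold apart in 28 of the 59 genes that rose and in 154 of the 219 that fell. A large fold change alone was not enough: of 1858 genes with a log2 fold change of at least 1 in either direction 13.5% were called, and of 160 genes with at least 4, 47.5% were. An exact permutation test of 3 libraries against 3 cannot go below p = 0.1, so no gene was tested in that way.

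**Figure D1:**
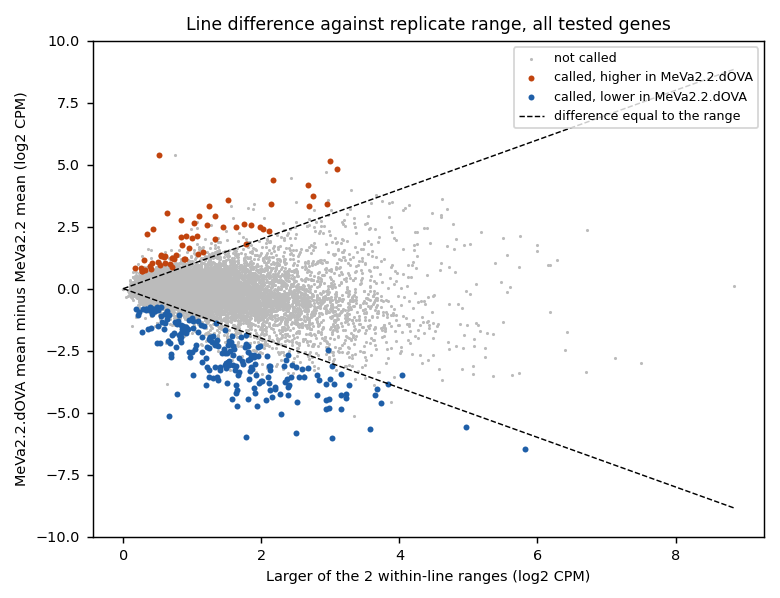
Difference of the mean log2 CPM of MeVa2.2.dOVA and MeVa2.2 (vertical axis) against the larger of the within-line ranges over 3 libraries (horizontal axis, log2 CPM), one point per tested gene. Orange points are the 59 genes called higher and blue points the 219 called lower. Of these 278, 276 lie outside the dashed lines, where the difference equals the range, and most grey points lie between the lines.

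In most of the fallen genes replicate 2 was the lowest library of its line, in the parent and in MeVa2.2.dOVA. Replicate 2 of MeVa2.2 was the lowest of its line in 140 of the 219 genes that fell (63.9%), compared with 41.1% of all tested genes. Replicate 2 of MeVa2.2.dOVA was so in 114 of them (52.05%), compared with 35.55% of all tested genes. In the 59 genes that rose, replicate 3 of MeVa2.2 was the lowest of its line in 30 (50.8%), compared with 33.5% of tested genes. Leaving out a library moved the number of calls widely. It was 80 without replicate 1 of MeVa2.2.dOVA, 20 without replicate 2 and 405 without replicate 3. It was 63, 447 and 94 without replicates 1, 2 and 3 of MeVa2.2. Leaving out a library of the other origin gave 158, 257 and 156 for MeVa2.1.dOVA, and 145, 154 and 212 for MeVa2.1. Of the 278 genes, 228 were called without replicate 2 of MeVa2.2 and 179 without replicate 3 of MeVa2.2.dOVA. A fit to the 6 libraries of these lines alone, with fewer residual degrees of freedom, called 5 genes, of which Anxa8, Ednrb and Gldn were among the 278. There, 1571 genes had an unadjusted p under 0.05. With the replicate number as a block, such a fit called 617 genes, 218 of them among the 278.

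**Figure D2:**
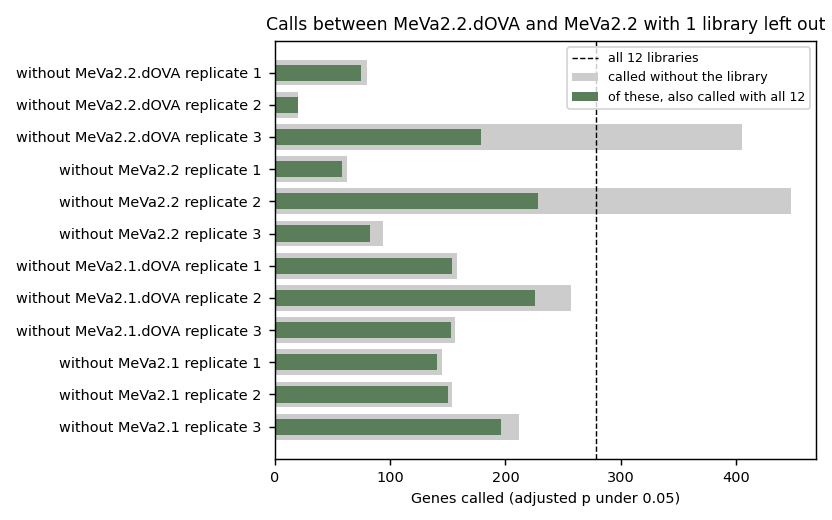
Number of genes called between MeVa2.2.dOVA and MeVa2.2 (horizontal axis) when each of the 12 libraries was left out in turn (rows). Grey bars give all calls of that fit, green bars those also called with all 12 libraries, and the dashed line marks 278. The bars run between 20 without replicate 2 of MeVa2.2.dOVA and 447 without replicate 2 of MeVa2.2.

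Among the 278 genes, 20 were called in each of the 12 fits with a library left out, 2 of them higher and 18 lower, and 7 were called in none. Of the 20, Ednrb and Gldn were also called in the fit to the pair alone. The genes that rose in every fit both encode neuronal surface proteins. Grik5, a subunit of kainate-type glutamate receptors (ENSMUSG00000003378, chromosome 7, 25009849 to 25072346, minus strand on GRCm38), was at 7.75, 6.93 and 8.76 CPM in MeVa2.2.dOVA and 1.80, 1.40 and 1.63 CPM in MeVa2.2 (log2 fold change 2.27, SE 0.27, adjusted p = 0.00396). Lrfn3, a synaptic adhesion molecule (chromosome 7, 30355489 to 30362772, minus strand), was at 4.38, 5.82 and 3.73 CPM in MeVa2.2.dOVA and 0.406, 0.594 and 0.418 CPM in MeVa2.2 (log2 fold change 3.28, SE 0.37, adjusted p = 0.00379). The libraries of the lines did not overlap in either gene, and within a line each gene stayed in a narrow band.

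Of the 18 genes that fell in every fit, several act at the cell surface. Sirpa encodes the receptor that binds CD47 and restrains phagocytosis (chromosome 2, 129592835 to 129632228, plus strand). It was at 1.42, 0.997 and 0.529 CPM in MeVa2.2.dOVA and 11.8, 12.5 and 12.4 CPM in MeVa2.2, and had the lowest adjusted p of the comparison (log2 fold change -3.68, SE 0.31, adjusted p = 0.00118). Its 3 parental libraries were nearly equal, and the nearest libraries of the lines were 7.86-fold apart. Ednrb, the endothelin receptor that melanocyte precursors need, had 1 count summed over the 3 libraries of MeVa2.2.dOVA and 202 over those of MeVa2.2. That is a level lower by a factor of 237, with an exact 95% counting interval of 42.1 to 9426 that covers counting error only. Gldn, the gliomedin of glial contacts, was at 0.264, 0.111 and 0.250 CPM in MeVa2.2.dOVA and 23.6, 8.37 and 28.8 CPM in MeVa2.2 (log2 fold change -6.52, SE 0.69, adjusted p = 0.00298), with replicate 2 lowest in both lines.

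Rap1gap2, which turns off the small GTPase Rap and also fell in every fit with a library left out, was at 0.686, 0.222 and 0.612 CPM in MeVa2.2.dOVA and 5.92, 3.94 and 4.75 CPM in MeVa2.2 (log2 fold change -3.22, SE 0.34). Enzymes of second messengers fell with it, namely the adenylyl cyclase Adcy3 (log2 fold change -2.79, SE 0.33), the cyclic AMP phosphodiesterase Pde8a (log2 fold change -4.12, SE 0.55) and the phospholipase Plcd1 (log2 fold change -3.30, SE 0.36). Ngef, an exchange factor for small GTPases that acts downstream of Eph receptors, was at 12.7, 4.32 and 10.4 CPM in MeVa2.2.dOVA and 50.6, 59.2 and 83.8 CPM in MeVa2.2 (log2 fold change -2.82, SE 0.41, adjusted p = 0.0108). The ubiquitin ligases Peli2 (log2 fold change -3.60, SE 0.34) and Rnf130 (log2 fold change -3.04, SE 0.40) and the deubiquitinase Usp13 (log2 fold change -3.25, SE 0.44) also fell. Runx3, a transcription factor of the Runt family, was at 1.95, 1.05 and 3.12 CPM in MeVa2.2.dOVA and 18.4, 14.96 and 21.1 CPM in MeVa2.2 (log2 fold change -3.12, SE 0.40, adjusted p = 0.00583). In each of these genes every library of MeVa2.2.dOVA lay below every library of MeVa2.2.

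Sema3b, a secreted semaphorin that fell in every such fit as well, was at 2.32, 1.72 and 5.93 CPM in MeVa2.2.dOVA and 31.01, 20.6 and 23.3 CPM in MeVa2.2 (log2 fold change -2.88, SE 0.41, adjusted p = 0.0105). The bone morphogenetic protein antagonist Nbl1 (log2 fold change -2.60, SE 0.32), the Golgi mannosidase Man1c1 (log2 fold change -3.66, SE 0.51) and the matrix glycoprotein Sparcl1 (log2 fold change -6.88, SE 0.82) fell as well. B3galnt1, a glycosyltransferase of globoside synthesis, had 2 counts in MeVa2.2.dOVA and 214 in MeVa2.2, a level lower by a factor of 126 (exact 95% counting interval 34.4 to 1045). The RNA-binding protein gene Rbpms had 0 counts in MeVa2.2.dOVA and 75 in MeVa2.2. Set against a floor of 3 counts over a line's libraries, it was at least 29.4-fold lower in MeVa2.2.dOVA.

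**Figure D3:**
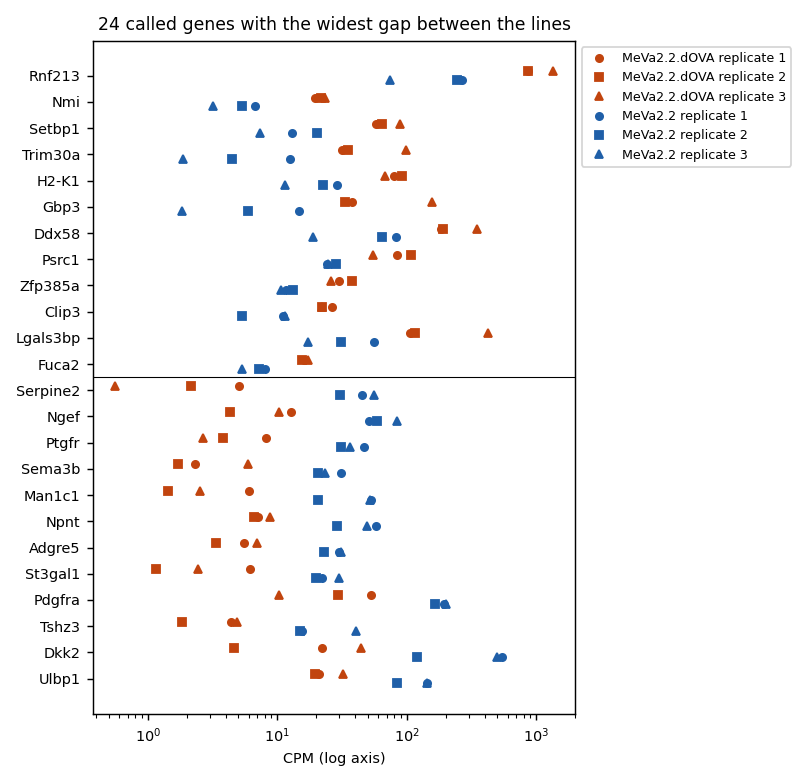
CPM per library (log axis) of the 24 called genes with the widest gap between the nearest libraries of the lines, among those whose mean log2 CPM was 3 or more. Genes above the horizontal line rose and genes below it fell in MeVa2.2.dOVA. Orange marks are MeVa2.2.dOVA, blue marks MeVa2.2, and the shape gives the replicate. The colours do not overlap in any row, and the gap is 3.22-fold in Rnf213 and 6.02-fold in Serpine2.

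Interferon-inducible genes were among those that rose. Across 4 lists of nucleic acid sensors, antiviral effectors, interferon-inducible GTPases and MHC class I genes, 75 of 81 tested members had a positive log2 fold change, and the median was 1.79, where 6740 of all 13985 tested genes (48.2%) had one. Of the 81, 13 rose (0.422% of all tested genes did) and none fell, and in 56 all MeVa2.2.dOVA libraries lay above all MeVa2.2 libraries, compared with 7.67% of all tested genes. The count of 13 was lost to a large part when any library of the pair was left out. It was 1, 0 and 3 without replicates 1, 2 and 3 of MeVa2.2.dOVA and 4, 2 and 1 without those of MeVa2.2, while the median ran between 1.26 and 2.55. Without a library of MeVa2.1.dOVA it was 2, 7 and 2, and without one of MeVa2.1 it was 2, 1 and 6. The count was 0 in the fit to these lines alone and 39 with the DESeq2 Wald test, which called 974 of all genes (6.96%), 330 of them higher (2.36%). With the replicate number as a block 36 rose and 1 fell, where 400 of all tested genes rose. With that block in the pair alone 9 rose and 0 fell, where 145 of all tested genes rose. The mean log2 CPM over the 81 genes was 4.69, 4.45 and 5.74 in MeVa2.2.dOVA and 4.04, 2.78 and 2.38 in MeVa2.2, so the parental libraries spanned a wider range than the gap between the nearest libraries. Replicate 3 was the highest of its line in 68 of the 81 genes in MeVa2.2.dOVA and the lowest of its line in 50 in MeVa2.2, where replicate 1 was the highest in 64.

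**Figure D4:**
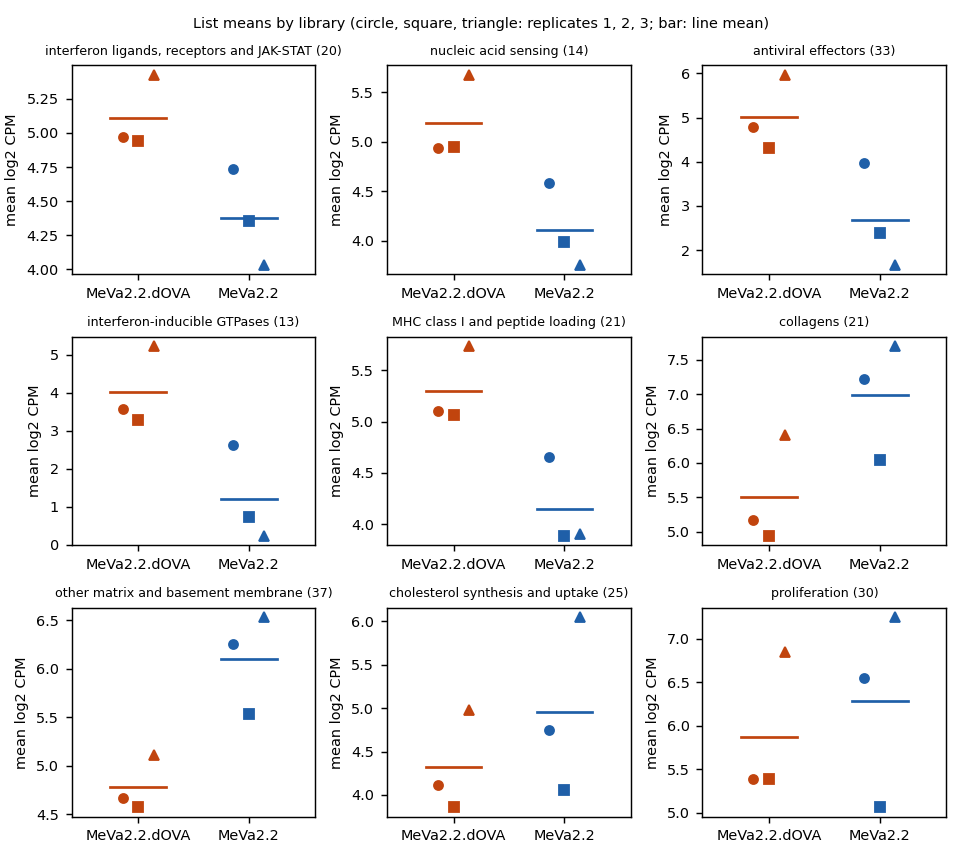
Mean log2 CPM over the tested members of 9 gene lists (vertical axis, a scale per panel) in each library of MeVa2.2.dOVA (orange, left) and MeVa2.2 (blue, right); numbers in brackets are tested members, shapes are replicates and bars the line means. In the 5 interferon and MHC class I panels all orange marks lie above all blue ones, while the marks overlap in the collagen, cholesterol and proliferation panels.

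Promoters of 4 of the risen genes are shown because their letters match the element that interferon-activated factors are known to bind. The sequences are from RefSeq on GRCm38.p6 and run 5′ to 3′ on the strand of the gene, starting 120 bases before the annotated start and ending 15 bases after it. Capitals mark matches to GAAA, any 2 bases and GAAA or, read on the other strand, TTTC, any 2 bases and TTTC. In Gbp3 and Oas1a 2 matches overlap. The windows are chr4:40239811-40239945 for Ddx58, chr3:142559924-142560058 for Gbp3, chr5:120907511-120907645 for Oas1a and chr7:104465179-104465313 for Trim30a, with Gbp3 on the plus strand and the others on the minus strand.
Ddx58: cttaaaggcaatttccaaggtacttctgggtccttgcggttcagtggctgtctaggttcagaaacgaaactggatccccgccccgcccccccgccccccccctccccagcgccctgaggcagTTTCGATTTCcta
Gbp3: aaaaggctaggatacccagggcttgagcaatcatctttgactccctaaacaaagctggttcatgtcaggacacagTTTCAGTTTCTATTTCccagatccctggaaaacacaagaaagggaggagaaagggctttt
Oas1a: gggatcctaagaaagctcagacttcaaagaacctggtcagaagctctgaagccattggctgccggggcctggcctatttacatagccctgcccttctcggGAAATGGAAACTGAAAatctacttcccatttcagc
Trim30a: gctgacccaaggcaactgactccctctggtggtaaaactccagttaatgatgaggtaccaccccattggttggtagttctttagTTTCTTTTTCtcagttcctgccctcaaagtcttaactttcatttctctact
In windows of 300 bases, the 250 before the start and 50 from it, this pattern of 10 bases was found on either strand in 3.99% of 27025 genes and in 3.71% of the 9967 tested genes that have a window. It was found in 8 of 47 genes that rose (17%) and 8 of 166 that fell (4.82%). Among tested list members with a window it was found in 12 of 25 antiviral effectors, 8 of 9 interferon-inducible GTPases, 5 of 17 MHC class I genes, 3 of 11 nucleic acid sensors, 3 of 20 other matrix genes and 0 of 18 collagens. These matches describe letters in a window and were not tied to binding of any factor.

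Ddx58 encodes RIG-I, the cytosolic sensor of viral RNA (chromosome 4, 40203773 to 40239828, minus strand). It was at 183, 191 and 351 CPM in MeVa2.2.dOVA and 82.2, 64.00 and 18.9 CPM in MeVa2.2 (log2 fold change 2.14, SE 0.49, adjusted p = 0.0495), with replicate 3 the highest of MeVa2.2.dOVA and the lowest of MeVa2.2. It was called in none of the 12 fits with a library left out. Ddx58 was the 1 of 14 tested nucleic acid sensing genes that rose, where 0.422% of all tested genes rose. With a stricter filter on low counts none of the 14 did. Of the 14, 13 were positive in fold change, and the median was 1.07. The related sensor Ifih1, or MDA5, was at 102, 97.3 and 127 CPM in MeVa2.2.dOVA and 51.9, 26.9 and 7.11 CPM in MeVa2.2 (log2 fold change 1.93, SE 0.72, adjusted p = 0.206), and did not pass the test although its libraries did not overlap. Zbp1, a sensor of left-handed nucleic acids, did not pass either (log2 fold change 2.75, SE 0.92, adjusted p = 0.160).

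Of 33 tested antiviral effectors 8 rose, namely Oas1a, Oas2, Trim30a, Lgals3bp, Herc6, Rnf213, Dtx3l and Parp12, and none fell. Over all tested genes 0.422% rose. The median of the list was 2.23, and 21 members showed no overlap, all of them higher, where 7.67% of all tested genes were. Rnf213, a very large ubiquitin ligase with an ATPase motor (chromosome 11, 119393100 to 119487418, plus strand), was the most abundant gene that rose, at 869.8, 861 and 1355 CPM in MeVa2.2.dOVA and 267, 246 and 73.9 CPM in MeVa2.2 (log2 fold change 2.39, SE 0.43, adjusted p = 0.0230). Its highest parental library lay 3.22-fold below the lowest library of MeVa2.2.dOVA, and it was called in 9 of the 12 fits with a library left out. Trim30a, a ubiquitin ligase of the tripartite motif family, was at 31.8, 34.96 and 97.7 CPM in MeVa2.2.dOVA and 12.5, 4.43 and 1.86 CPM in MeVa2.2 (log2 fold change 3.14, SE 0.64, adjusted p = 0.0372). The secreted galectin-binding protein gene Lgals3bp was at 106, 116 and 420.4 CPM in MeVa2.2.dOVA and 55.5, 31.1 and 17.4 CPM in MeVa2.2 (log2 fold change 2.63, SE 0.58, adjusted p = 0.0462). In both genes replicate 3 of MeVa2.2.dOVA was more than 2-fold above the other libraries of its line, and replicate 1 was the highest of the parent. Trim30a was called in 3 and Lgals3bp in 1 of the 12 fits with a library left out.

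The oligoadenylate synthetases Oas1a and Oas2, which make the second messenger of RNase L, were near 0 in the parent. Oas1a was at 1.79, 2.44 and 16.02 CPM in MeVa2.2.dOVA and 0.116, 0.108 and 0 CPM in MeVa2.2 (log2 fold change 6.54, SE 1.23, adjusted p = 0.0375). Oas2 was at 4.80, 4.54 and 36.8 CPM in MeVa2.2.dOVA and 0.697, 0.108 and 0.0380 CPM in MeVa2.2 (log2 fold change 5.85, SE 1.21, adjusted p = 0.0462). Most of the reads in MeVa2.2.dOVA came from replicate 3 in both genes, and reads shared among near-identical Oas copies make their values uncertain. Parp12 (log2 fold change 1.98, SE 0.44) and Dtx3l (log2 fold change 2.36, SE 0.54), which act in ADP-ribosylation and ubiquitylation, and the HECT ligase Herc6 (log2 fold change 2.57, SE 0.56) rose with adjusted p values of 0.0462, 0.0495 and 0.0453. Parp12 and Dtx3l were called in none of the 12 fits with a library left out.

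Other well-known effectors had large fold changes without passing the test. Ifit3, which binds viral RNA ends, was at 110.3, 61.3 and 287 CPM in MeVa2.2.dOVA and 48.5, 8.75 and 3.19 CPM in MeVa2.2 (log2 fold change 2.93, SE 1.0, adjusted p = 0.170). Oasl2 was at 97.05, 66.1 and 328 CPM in MeVa2.2.dOVA and 43.3, 10.04 and 3.53 CPM in MeVa2.2 (log2 fold change 3.12, SE 0.99, adjusted p = 0.142). Its libraries and those of Ifit3 did not overlap, but in each gene the parental libraries themselves differed by more than 10-fold. Ifit1 did overlap, at 171, 61.2 and 421 CPM in MeVa2.2.dOVA and 183, 16.4 and 8.82 CPM in MeVa2.2 (log2 fold change 1.66, SE 1.16, adjusted p = 0.503). Replicate 1 of the parent exceeded replicates 1 and 2 of MeVa2.2.dOVA. The Mx GTPase genes and Rsad2, or viperin, overlapped too, with adjusted p values of 0.537 for Mx1, 0.339 for Mx2 and 0.302 for Rsad2. Parp14 (log2 fold change 2.82, SE 0.65, adjusted p = 0.0512) and Parp9 (log2 fold change 2.14, SE 0.53, adjusted p = 0.0674) lay just above the threshold.

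All 13 tested interferon-inducible GTPases were positive in fold change, and their median was 2.69. Of them 12 were higher without overlap, where 7.67% of all tested genes were. Gbp3, a guanylate-binding protein (chromosome 3, 142560026 to 142573209, plus strand), was at 37.9, 33.4 and 157 CPM in MeVa2.2.dOVA and 14.8, 5.94 and 1.82 CPM in MeVa2.2 (log2 fold change 3.35, SE 0.76, adjusted p = 0.0486), and was called in none of the fits with a library left out. Gvin1, a very large inducible GTPase, was at 2.21, 2.83 and 4.20 CPM in MeVa2.2.dOVA and 0.465, 0.270 and 0.0380 CPM in MeVa2.2 (log2 fold change 3.63, SE 0.76, adjusted p = 0.0404). These 2 were the members that rose, where 0.422% of all tested genes rose. Igtp, which acts on vacuoles that hold pathogens, was at 28.4, 21.1 and 67.2 CPM in MeVa2.2.dOVA and 11.5, 5.56 and 1.14 CPM in MeVa2.2 (log2 fold change 2.69, SE 0.71, adjusted p = 0.0833), without overlap but not past the threshold. Reads shared among the Gbp copies make the values of that family uncertain.

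Nmi, a partner of STAT proteins that interferons induce, was outside these lists. It was at 19.5, 21.7 and 23.3 CPM in MeVa2.2.dOVA and 6.74, 5.35 and 3.15 CPM in MeVa2.2 (log2 fold change 2.09, SE 0.31, adjusted p = 0.0121), and was called in 11 of the 12 fits with a library left out, more than any member of the 4 lists. Its MeVa2.2.dOVA libraries lay close together and its parental ones lay at least 2.87-fold lower. Samd9l, an interferon-inducible restriction factor, did not pass, at 45.7, 43.00 and 167 CPM in MeVa2.2.dOVA and 21.9, 2.65 and 7.52 CPM in MeVa2.2 (log2 fold change 3.0, SE 0.82, adjusted p = 0.0918).

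The genes that carry the interferon signal had a lower median than its targets. Of 20 tested ligands, receptors and JAK-STAT components, none passed the edgeR test, 8 were higher and 1 lower at an unadjusted p under 0.05, where 16.4% of all tested genes had such a p, 6.7% higher and 9.73% lower. With DESeq2 4 were higher, where 2.36% of all tested genes were. The median was 0.28. Irf7, which amplifies the type I response, was at 28.7, 24.7 and 143 CPM in MeVa2.2.dOVA and 22.3, 8.48 and 2.13 CPM in MeVa2.2 (log2 fold change 2.58, SE 0.80, adjusted p = 0.133). Replicates 1 and 2 of MeVa2.2.dOVA lay close to replicate 1 of the parent, and replicate 3 lay far above. Irf1 (log2 fold change 1.36, SE 0.41) and Irf9 (log2 fold change 1.22, SE 0.42) were also free of overlap, while Stat2 (log2 fold change 1.76, SE 0.54) and the ubiquitin-like modifier Isg15 (log2 fold change 2.06, SE 0.80) overlapped. The receptor chain Ifnar1 had a log2 fold change of -0.41 (SE 0.15) and the kinase Jak1 one of 0.19 (SE 0.15), neither past the test.

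Among MHC class I genes the classical heavy chains rose. Of 21 tested genes of class I presentation, 2 rose and none fell, where 0.422% of all tested genes rose. Without overlap 15 were higher and 1 lower, where 7.67% and 9.22% of all tested genes were. The median was 1.21. H2-K1, a classical heavy chain (chromosome 17, 33996017 to 34000347, minus strand), was at 78.96, 91.04 and 68.02 CPM in MeVa2.2.dOVA and 28.9, 22.6 and 11.4 CPM in MeVa2.2 (log2 fold change 1.92, SE 0.43, adjusted p = 0.0462). H2-D1, the other, was at 189.5, 204 and 198 CPM in MeVa2.2.dOVA and 112, 91.3 and 60.3 CPM in MeVa2.2 (log2 fold change 1.17, SE 0.26, adjusted p = 0.0462). Here replicate 3 of MeVa2.2.dOVA was in step with its line, unlike in the antiviral genes, while replicate 3 of MeVa2.2 was again the lowest. H2-K1 was called in 3 and H2-D1 in 1 of the 12 fits with a library left out, and reads shared with other H2 genes make both uncertain.

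The partners of the heavy chains did not pass the test. B2m, the invariant light chain, was at 849, 785 and 937 CPM in MeVa2.2.dOVA and 574, 571 and 377 CPM in MeVa2.2 (log2 fold change 0.76, SE 0.22, adjusted p = 0.119), without overlap. Tap1, of the transporter that carries peptides to the endoplasmic reticulum, was at 20.6, 23.8 and 32.99 CPM in MeVa2.2.dOVA and 9.70, 5.51 and 2.17 CPM in MeVa2.2 (log2 fold change 2.16, SE 0.83, adjusted p = 0.226), also without overlap. Its nearest libraries were 2.11-fold apart. Tap2 (log2 fold change 1.60, SE 0.54), the loading factor Tapbp (log2 fold change 1.33, SE 0.44), the immunoproteasome subunits Psmb8 (log2 fold change 2.39, SE 0.95) and Psmb10 (log2 fold change 1.29, SE 0.37) and the class I transactivator Nlrc5 (log2 fold change 1.67, SE 0.86) had positive fold changes. The chaperone Pdia3, which also folds proteins outside this route, went the other way (log2 fold change -0.76, SE 0.28) and did not pass. In MHC class II, none of 4 tested genes passed, at an unadjusted p or with DESeq2 either.

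Among checkpoint ligands and among cytokines 1 gene each fell, where 1.57% of all tested genes fell. Of 15 tested ligands of inhibitory or activating immune receptors, 1 fell and none rose. That gene was Ulbp1, whose product engages the activating receptor NKG2D of natural killer cells (chromosome 10, 7440362 to 7473638, minus strand). It was at 20.9, 19.4 and 32.1 CPM in MeVa2.2.dOVA and 142, 84.6 and 144 CPM in MeVa2.2 (log2 fold change -2.35, SE 0.33, adjusted p = 0.0107), clear of overlap and called in 11 of the 12 fits with a library left out. Cd274, which encodes PD-L1, was at 10.8, 8.92 and 7.79 CPM in MeVa2.2.dOVA and 7.08, 6.70 and 1.41 CPM in MeVa2.2 (log2 fold change 0.86, SE 0.57, adjusted p = 0.474), and did not pass. Of 18 tested chemokines and cytokines, the membrane-bound chemokine Cx3cl1 fell, at 4.69, 2.38 and 3.23 CPM in MeVa2.2.dOVA and 20.6, 7.99 and 31.2 CPM in MeVa2.2 (log2 fold change -2.54, SE 0.45, adjusted p = 0.0222), and none rose. The T cell attractants Cxcl10, at 101, 52.4 and 32.7 CPM in MeVa2.2.dOVA and 53.5, 14.7 and 4.67 CPM in MeVa2.2, and Ccl5, at 19.7, 13.2 and 7.76 CPM in MeVa2.2.dOVA and 13.1, 1.40 and 0.798 CPM in MeVa2.2, overlapped between the lines (adjusted p = 0.470 and 0.511). Il34, a ligand of the macrophage receptor Csf1r and a member of no list here, fell, at 12.3, 18.8 and 20.5 CPM in MeVa2.2.dOVA and 57.4, 53.03 and 63.5 CPM in MeVa2.2 (log2 fold change -1.75, SE 0.27, adjusted p = 0.0128).

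**Figure D5:**
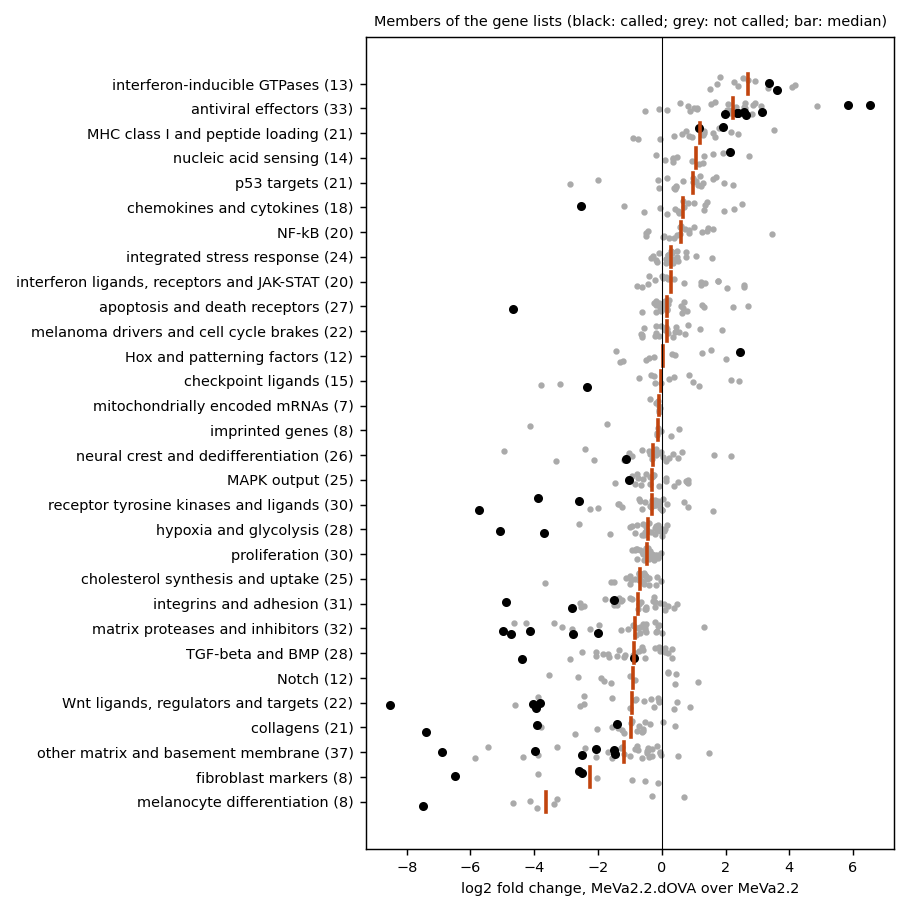
Log2 fold change of MeVa2.2.dOVA over MeVa2.2 (horizontal axis) for each tested member of the gene lists with at least 7 tested members (rows, ordered by median; tested members in brackets). Black points passed the test, grey points did not, and orange bars are medians. The medians are 2.69 for interferon-inducible GTPases and 2.23 for antiviral effectors, and -0.97 for collagens and -1.17 for other matrix genes.

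Genes of the extracellular matrix were among those that fell. Over lists of collagens, other matrix and basement membrane proteins, and matrix proteases with their inhibitors, 85 of 90 tested genes had a negative log2 fold change, with a median of -0.95. Of the 90, 14 fell and none rose, where 1.57% of all tested genes fell, and 34 were lower and 2 higher without overlap, where 9.22% and 7.67% of all tested genes were. The count was 3, 1 and 13 without replicates 1, 2 and 3 of MeVa2.2.dOVA and 3, 20 and 6 without those of MeVa2.2. It was 10, 14 and 7 with a MeVa2.1.dOVA library left out and 6, 9 and 11 with a MeVa2.1 library left out. It was 1 in the fit to these lines alone and 29 with DESeq2, which called 644 of all genes lower (4.6%). With the replicate number as a block 31 fell and 2 rose, where 684 of all tested genes fell. With that block in the pair alone 32 fell and 1 rose, where 472 of all tested genes fell. The mean log2 CPM over the 90 genes was 4.66, 4.40 and 5.05 in MeVa2.2.dOVA and 6.32, 5.45 and 6.48 in MeVa2.2, with replicate 2 the lowest library of its line in 59 of the 90 genes in MeVa2.2.

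Among 21 collagens, Col4a2, a chain of the basement membrane network, was at 158, 125 and 275 CPM in MeVa2.2.dOVA and 543, 376 and 554 CPM in MeVa2.2 (log2 fold change -1.40, SE 0.27, adjusted p = 0.0314). Col4a6 (log2 fold change -3.92, SE 0.65) and Col15a1 (log2 fold change -7.40, SE 1.61) fell too, from low parental levels. The linker protein nidogen, Nid1, was at 85.7, 85.3 and 45.7 CPM in MeVa2.2.dOVA and 201, 181 and 231 CPM in MeVa2.2 (log2 fold change -1.50, SE 0.25, adjusted p = 0.0178) and was called in 10 of the 12 fits with a library left out. Its paralogue Nid2 (log2 fold change -3.98, SE 0.85) and the laminin chain Lama4 (log2 fold change -2.05, SE 0.45) also fell. The fibrillar collagen gene Col1a1 did not pass, at 196, 208 and 952 CPM in MeVa2.2.dOVA and 779, 359.6 and 1459 CPM in MeVa2.2 (log2 fold change -0.94, SE 0.63, adjusted p = 0.480). Its replicate 3 of MeVa2.2.dOVA lay within the parental range.

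Proteoglycans and other matrix proteins fell at very different levels. The large proteoglycan Vcan, or versican, was at 98.8, 75.96 and 170.1 CPM in MeVa2.2.dOVA and 210.4, 324 and 428 CPM in MeVa2.2 (log2 fold change -1.48, SE 0.31, adjusted p = 0.0404), with no overlap but a nearest gap of only 1.24-fold. The small proteoglycan Dcn, or decorin, was low in both lines, at 0.264, 0.277 and 0.306 CPM in MeVa2.2.dOVA and 2.09, 1.13 and 1.63 CPM in MeVa2.2 (log2 fold change -2.49, SE 0.42, adjusted p = 0.0178). Npnt, the integrin ligand nephronectin and a member of no list here, was at 7.07, 6.65 and 8.73 CPM in MeVa2.2.dOVA and 58.01, 29.00 and 49.1 CPM in MeVa2.2 (log2 fold change -2.60, SE 0.49, adjusted p = 0.0256). Its MeVa2.2.dOVA libraries were almost equal. Mgp, an inhibitor of calcification, was at 33.4, 23.6 and 84.8 CPM in MeVa2.2.dOVA and 588, 106 and 1121 CPM in MeVa2.2. Its log2 fold change was -3.68 (SE 0.84), yet with parental libraries more than 10-fold apart its adjusted p was 0.0507.

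Among 32 matrix proteases and inhibitors, 5 fell and none rose, where 1.57% of all tested genes fell. Serpine2, which encodes the thrombin and urokinase inhibitor nexin (chromosome 1, 79794197 to 79861180, minus strand), was at 5.01, 2.16 and 0.556 CPM in MeVa2.2.dOVA and 44.9, 30.6 and 56.2 CPM in MeVa2.2 (log2 fold change -4.12, SE 0.64, adjusted p = 0.0136). Its nearest libraries were 6.02-fold apart, the widest gap among fallen genes whose mean log2 CPM was 3 or more, and it was called in 11 of the 12 fits with a library left out. Ctsk, the collagen-degrading cathepsin K, was at 22.2, 25.5 and 13.1 CPM in MeVa2.2.dOVA and 79.6, 115 and 48.4 CPM in MeVa2.2 (log2 fold change -2.0, SE 0.43, adjusted p = 0.0452). Among heparan sulfate enzymes, the sulfatase Sulf1 (log2 fold change -4.74, SE 0.85) and the heparanase Hpse (log2 fold change -2.77, SE 0.56), and the complement inhibitor Serping1 (log2 fold change -4.99, SE 1.05) fell as well.

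Some adhesion receptors fell too. Of 31 tested integrin and adhesion genes, 3 fell and none rose, where 1.57% of all tested genes fell, 26 were negative in fold change, and the median was -0.75. The count was 0, 0 and 2 without replicates 1, 2 and 3 of MeVa2.2.dOVA and 0, 3 and 1 without those of MeVa2.2. It was 1, 2 and 1 with a MeVa2.1.dOVA library left out, and 1, 1 and 2 with a MeVa2.1 library left out. It was 0 in the fit to the pair alone. With the replicate number as a block it was 8, and 9 with that block in the pair alone (684 and 472 of all tested genes). Itga6, the laminin receptor chain alpha 6, was at 117, 98.7 and 88.4 CPM in MeVa2.2.dOVA and 355, 199.8 and 312 CPM in MeVa2.2 (log2 fold change -1.51, SE 0.26, adjusted p = 0.0207). Itgb3, of the vitronectin receptor, was at 0.317, 0.111 and 0.167 CPM in MeVa2.2.dOVA and 8.54, 0.810 and 8.36 CPM in MeVa2.2 (log2 fold change -4.89, SE 1.01, adjusted p = 0.0393), with replicate 2 of the parent about 10-fold below the others of its line. Jam2, a junction protein, fell by 2.82 on the log2 scale (SE 0.64). Adgre5, the adhesion receptor CD97 and a member of no list here, was at 5.49, 3.38 and 7.01 CPM in MeVa2.2.dOVA and 30.1, 22.7 and 31.04 CPM in MeVa2.2 (log2 fold change -2.39, SE 0.35, adjusted p = 0.0108).

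Of 22 Wnt ligands, regulators and targets, 4 fell and none rose, where 1.57% of all tested genes fell, and the median was -0.92. The count was 1, 0 and 2 without replicates 1, 2 and 3 of MeVa2.2.dOVA, 1, 6 and 1 without those of MeVa2.2, 1, 4 and 1 with a MeVa2.1.dOVA library left out and 1 with any MeVa2.1 library left out. It was 0 in the fit to the pair alone, and over these settings the median lay between -2.35 and -0.56. Dkk2, a secreted Wnt antagonist (chromosome 3, 132085292 to 132180304, plus strand), was at 22.1, 4.65 and 44.3 CPM in MeVa2.2.dOVA and 542, 119.5 and 501 CPM in MeVa2.2 (log2 fold change -4.03, SE 0.90, adjusted p = 0.0472). All its MeVa2.2.dOVA libraries lay below the parental ones, although in each line replicate 2 was the lowest by a factor of 4 or more. Sfrp1, another secreted antagonist, had 0 counts in MeVa2.2.dOVA and 136 in MeVa2.2, at least 53.3-fold lower against the floor of 3 counts. Nkd2, an intracellular inhibitor (log2 fold change -3.94, SE 0.90), and Ror2, a receptor for noncanonical Wnt ligands, fell from parental levels below 3 CPM. In the TGF-beta list the latent TGF-beta binding proteins Ltbp1 and Ltbp2 fell, 2 of 28 tested. Ltbp1 was at 456, 485 and 572 CPM in MeVa2.2.dOVA and 948, 998 and 835 CPM in MeVa2.2 (log2 fold change -0.88, SE 0.16, adjusted p = 0.0210), a small change that exceeded the spread.

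Growth factor receptors included large and small changes. Pdgfra, a receptor of platelet-derived growth factor (chromosome 5, 75152292 to 75198215, plus strand), was at 52.4, 29.2 and 10.2 CPM in MeVa2.2.dOVA and 193, 166 and 199.6 CPM in MeVa2.2 (log2 fold change -2.61, SE 0.59, adjusted p = 0.0483). It was called in 1 of the 12 fits with a library left out. Egfr was low in both lines and fell (log2 fold change -3.88, SE 0.84), and so did Gas6, a ligand of Axl, with 1 count in MeVa2.2.dOVA and 61 in MeVa2.2. These were the 3 of 30 tested receptor tyrosine kinases and ligands that changed, where 1.99% of all tested genes did. The count of fallen genes was 0, 0 and 1 without replicates 1, 2 and 3 of MeVa2.2.dOVA and 0, 2 and 0 without those of MeVa2.2. It was 1, 2 and 1 with a MeVa2.1.dOVA library left out, and 1, 0 and 2 with a MeVa2.1 library left out. It was 0 in the fit to the pair alone. With the replicate number as a block it was 3, and 1 with that block in the pair alone (684 and 472 of all tested genes). Axl itself, a receptor of dedifferentiated melanoma, was abundant and overlapped, at 1216, 1311 and 1372 CPM in MeVa2.2.dOVA and 1715, 1286 and 1484 CPM in MeVa2.2 (log2 fold change -0.20, SE 0.16, adjusted p = 0.561). Of 25 MAPK output genes, Etv5, a transcription factor downstream of ERK, fell, at 67.8, 60.9 and 53.4 CPM in MeVa2.2.dOVA and 133, 102 and 137 CPM in MeVa2.2 (log2 fold change -1.03, SE 0.20, adjusted p = 0.0302), and none rose.

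The label of a melanoma line was set against lineage markers. Mitf, the master factor of melanocytes, was at 13.9, 9.20 and 10.8 CPM in MeVa2.2.dOVA and 17.2, 10.4 and 14.3 CPM in MeVa2.2, and Pax3, which acts upstream of it, at 38.1, 40.6 and 35.00 CPM in MeVa2.2.dOVA and 22.2, 26.1 and 21.6 CPM in MeVa2.2. Neither passed the test (adjusted p = 0.644 and 0.0952), and Pax3 did not overlap. The melanin enzymes were near 0 in all libraries but replicate 1 of MeVa2.2 and, less so, its replicate 3. Dct was at 0.738, 0 and 0 CPM in MeVa2.2.dOVA and 15.6, 0 and 2.28 CPM in MeVa2.2, and Tyrp1 at 0.844, 0 and 0 CPM in MeVa2.2.dOVA and 12.1, 0 and 2.09 CPM in MeVa2.2. Kit had no count in any of the 6 libraries. Of 16 listed melanocyte genes 8 could be tested, and Ednrb was the 1 that fell, where 1.57% of all tested genes fell. Of the 8, 7 were negative in fold change, with a median of -3.65. At an unadjusted p under 0.05, 5 were lower and 1 higher, where 9.73% and 6.7% of all tested genes were. With DESeq2 2 were lower and 1 higher, where 4.6% and 2.36% of all tested genes were. With a stricter filter on low counts 3 were tested, with a median of -0.31. Of the 16 listed genes, 4, 12 and 7 had no count in MeVa2.2.dOVA and 1, 9 and 2 in MeVa2.2. Their summed level was 54.7, 50.1 and 46.3 CPM in MeVa2.2.dOVA and 87.8, 41.5 and 46.5 CPM in MeVa2.2. Thus the melanin enzymes were low or without counts in most libraries, while Mitf and Pax3 had counts in all 6 and do not stand for the whole list.

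Markers of other cell types were checked in the same libraries. Of 8 fibroblast markers, Dcn, Pdgfra and Thy1 fell, where 1.57% of all tested genes fell. All 8 were negative in fold change, and the median was -2.26. The count of fallen markers was 1, 0 and 2 without replicates 1, 2 and 3 of MeVa2.2.dOVA and 0, 2 and 2 without those of MeVa2.2. It was 2 or 3 with another library left out and 0 in the fit to the pair alone. With the replicate number as a block it was 4, and also 4 with that block in the pair alone (684 and 472 of all tested genes). Thy1 was at 0.475, 0.111 and 0.111 CPM in MeVa2.2.dOVA and 25.6, 5.18 and 29.8 CPM in MeVa2.2 (log2 fold change -6.49, SE 1.09, adjusted p = 0.0178). The summed level of the 8 was 1506, 1652 and 4703 CPM in MeVa2.2.dOVA and 3811, 2845 and 5779 CPM in MeVa2.2, of which Col1a1 and Col1a2 made up the larger part, and the lines overlapped in it. In bulk RNA a smaller share of cells that carry such a transcript and less of it per cell cannot be told apart, and the part of these markers in the matrix differences was not tested. Ptprc, the pan-leukocyte marker CD45, was at 0.105, 0 and 0.0278 CPM in MeVa2.2.dOVA and 0.232, 0.108 and 0 CPM in MeVa2.2, and Cd3e and Cd8a had no count. The sum over 10 leukocyte markers was 5.06, 2.11 and 2.11 CPM in MeVa2.2.dOVA and 4.99, 3.73 and 2.77 CPM in MeVa2.2, mostly Cd68. The sum over 6 endothelial markers was 0.949, 0.443 and 0.529 CPM in MeVa2.2.dOVA and 1.74, 1.03 and 0.646 CPM in MeVa2.2. Of 5 sex chromosome genes (Xist, Ddx3y, Eif2s3y, Kdm5d and Uty) 1 could be tested, and it did not pass (log2 fold change 0.12). Without a count were 3, 4 and 3 of the 5 in MeVa2.2.dOVA and 4, 0 and 3 in MeVa2.2. Replicate 2 of MeVa2.2 was thus the only library with counts in all 5, and the source of these counts was not tested.

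The most abundant called genes, besides Rnf213, changed by less than 3-fold, and by more than their spread. Bptf, the largest subunit of a nucleosome remodelling complex, was at 279, 284 and 272 CPM in MeVa2.2.dOVA and 147, 164 and 165 CPM in MeVa2.2 (log2 fold change 0.81, SE 0.18, adjusted p = 0.0462). Phf3, a regulator of RNA polymerase (log2 fold change 0.70, SE 0.15), and Ascc3, a helicase that also splits stalled ribosomes (log2 fold change 0.83, SE 0.18), rose by similar amounts. Anxa2, a membrane-binding annexin, was at 882, 982 and 1220.0 CPM in MeVa2.2.dOVA and 1642, 1656 and 2083 CPM in MeVa2.2 (log2 fold change -0.80, SE 0.18, adjusted p = 0.0495). Emp1, a tetraspan membrane protein, was at 643, 776 and 686 CPM in MeVa2.2.dOVA and 1616, 1533 and 2268 CPM in MeVa2.2 (log2 fold change -1.36, SE 0.29, adjusted p = 0.0417), and Myadm fell by 0.83 on the log2 scale (SE 0.19). At the other extreme, Pcdh20 had a log2 fold change of -3.02 but overlapped, at 9.97, 10.1 and 17.5 CPM in MeVa2.2.dOVA and 38.4, 11.3 and 255 CPM in MeVa2.2 (adjusted p = 0.190), and Dmp1, at 7.28, 3.71 and 19.2 CPM in MeVa2.2.dOVA and 83.04, 23.4 and 573 CPM in MeVa2.2, did not pass (adjusted p = 0.0674).

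Several gene groups varied between replicates of both lines in step. All 30 tested proliferation genes were negative in fold change (median -0.48), but none passed the edgeR test, an unadjusted p under 0.05 or DESeq2. Their mean log2 CPM was 5.38, 5.38 and 6.85 in MeVa2.2.dOVA and 6.55, 5.06 and 7.24 in MeVa2.2, highest in replicate 3 of each line, and replicate 2 of MeVa2.2 was the lowest of its line in all 30. All 25 cholesterol synthesis and uptake genes were likewise negative (median -0.69) and none was called. At an unadjusted p under 0.05, 2 were lower, where 9.73% of all tested genes were, and with DESeq2 1 was, where 4.6% were. With the replicate number as a block 2 fell, and 3 with that block in the pair alone (684 and 472 of all tested genes). Their mean log2 CPM was 4.11, 3.86 and 4.98 in MeVa2.2.dOVA and 4.75, 4.06 and 6.05 in MeVa2.2, and replicate 3 of MeVa2.2 was the highest of its line in all 25. Targets of p53 showed the opposite order, with 6.73, 7.03 and 5.74 in MeVa2.2.dOVA and 5.87, 6.43 and 5.39 in MeVa2.2. Of 21 tested, 17 were positive in fold change (median 0.98) and none passed. At an unadjusted p under 0.05, 6 were higher and 2 lower, where 6.7% and 9.73% of all tested genes were. With DESeq2 3 were higher and 2 lower, where 2.36% and 4.6% were. With the replicate number as a block 9 rose and 2 fell, where 400 and 684 of all tested genes did. With that block in the pair alone 7 rose and 2 fell, where 145 and 472 did. Mdm2, the p53 ligase and target, was at 1162, 1612 and 273 CPM in MeVa2.2.dOVA and 273, 478 and 181 CPM in MeVa2.2, with replicate 3 the lowest in each line. The part of these differences between replicates in the changes between the lines was not tested.

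The change in this pair was set against that of MeVa2.1.dOVA and MeVa2.1, which share no library with it. Both changes were tested in the same fit with a shared estimate of the spread, so the calls of the pairs are not independent. That pair had 68 called genes (0.486%) and 2956 without overlap (21.1%). Called in both pairs were 18 genes, 6.47% of the MeVa2.2 calls and 26.5% of the MeVa2.1 calls, and 17 of them had the same direction. Serpine2 had a log2 fold change of -4.12 in the MeVa2.2 pair and -3.52 in the MeVa2.1 pair, Npnt of -2.60 and -2.98, Sulf1 of -4.74 and -5.72, and Cx3cl1 of -2.54 and -2.55. Lgals3bp stood at 2.63 in the MeVa2.2 pair and -1.74 in the MeVa2.1 pair, and H2-K1 at 1.92 and -1.28. The test of the difference between the changes called neither (adjusted p = 0.0840 for both), and it called 12 genes in all (0.0858%), of which 9 are among the 278. That count was 0 without replicate 3 of MeVa2.1.dOVA or replicate 1 of MeVa2.2 and 1 without replicate 1 or 3 of MeVa2.1. Sirpa was 1 of them, with a change in the MeVa2.1 pair of -0.13 (difference -3.55, SE 0.40, adjusted p = 0.0119). The median difference over the list, MeVa2.2 pair minus MeVa2.1 pair, was 2.28 for antiviral effectors and 1.43 for MHC class I genes, with no member called, and -0.14 for collagens.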

How the data were processed

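RNA was measured in 12 libraries, 3 per cell line. Per the labels' protocols, total RNA came from a column kit and libraries were stranded and poly(A)-selected; STAR 2.6.0c, HTSeq 0.10.0, DESeq2 1.30.1 and GRCm38 are named in the submitters' processing notes. The strand setting of the counting is not given in the sources used here, so reads of genes that overlap on opposite strands cannot be told apart. The authors deposited raw counts, whole numbers of reads for each gene. The 5 tally rows of each file, 35.8% to 39.5% of the reads in the 6 libraries of the pair, were left out, and reads of low mapping quality (29.9% to 33.0%) are among them, so near-identical copies such as the H2, Oas, Gbp and Ifit genes may be under-counted. Of 55471 gene IDs, 55144 had a symbol and 55230 a position in GENCODE M21 on GRCm38.

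Counts were fitted with edgeR 4.0.16 (limma 3.58.1, R 4.3.3; TMM scaling, filterByExpr, glmQLFit with a mean per line over all 12 libraries, 8 residual degrees of freedom, common dispersion 0.121, prior degrees of freedom 3.54). Each glmQLFTest was adjusted by Benjamini-Hochberg over 13985 genes at 0.05. SE is the log2 fold change divided by the square root of F and restates that test. Library levels are CPM at effective library size. Overlap was judged on log2 CPM (prior count 2). For a line with 0 counts the floor was 3 counts over its 3 libraries, and with 1 to 3 counts an exact 95% counting interval is given; both cover counting error only. The fit was tested on simulated data with known changes. Alternatives were RLE scaling, DESeq2 1.42.0, other count filters, the pair alone, the replicate number as a block, other prior counts, library totals in place of TMM, and leaving out each library.

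Members and the 36 gene lists were chosen with earlier results of these data known. Named genes were, per direction, the 12 called genes with the widest gap between the nearest libraries at a mean log2 CPM of 3 or more, the 4 most abundant called genes and the 4 largest changes not called. From each list up to 6 members could be named, called ones first and then by size of fold change, and any member of the interferon, antigen presentation and marker lists. Genes named because they were called in at least 11 of the 12 fits with a library left out or because their change differed from the MeVa2.1 pair, and Anxa8, Axl and Cd274, were chosen after their values were seen.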

Additional observations from a re-analysis of the deposited data

Results flagged for a closer look

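In 12 genes the change of the dOVA line against its parent differed between the MeVa2.2 and MeVa2.1 origins by the test of that difference itself, adjusted over all genes. Differences are given on the log2 scale as MeVa2.2 origin minus MeVa2.1 origin. B3galnt1, a glycosyltransferase, differed by -6.30 (with 2 counts in MeVa2.2.dOVA), Usp13, a deubiquitinase, by -4.28, Radil, an effector of the GTPase Rap, by -4.03, Sirpa by -3.55, Rnf130 by -3.49, Rap1gap2 by -3.11 and the pseudokinase gene Trib1 by -2.16. All 7 fell in MeVa2.2.dOVA against MeVa2.2. In the MeVa2.1 pair their log2 fold changes were -0.35 for B3galnt1, 1.02 for Usp13, 1.29 for Radil, 0.45 for Rnf130, -0.11 for Rap1gap2 and 0.80 for Trib1.

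Hdx, a homeobox gene on the X chromosome, differed by 6.50, Lrfn3 by 4.28, the long non-coding RNA Carmn by 3.72, the testis bromodomain gene Brdt by 3.44 and Pcdhgb2 by 2.49. Hdx was at 10.9, 14.5 and 6.23 CPM in MeVa2.2.dOVA and 1.45, 1.62 and 1.71 CPM in MeVa2.2 and rose (log2 fold change 2.72, SE 0.44), whereas its log2 fold change in the MeVa2.1 pair was -3.78. Carmn, Brdt and Pcdhgb2 did not pass the test in the MeVa2.2 pair (adjusted p = 0.602, 0.0710 and 0.216). Pcdhgb2 overlaps its neighbours in the protocadherin gamma cluster, so its counts are uncertain.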

How the results depend on the processing

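The count of 278 changed genes was 274 with RLE scaling, 251 with a stricter filter, 729 with no filter, 974 with DESeq2 (277 of the 278 among them), 5 with the pair alone and 20 to 447 with a library left out. The count of 12 genes whose change differed between origins was 12 with RLE scaling or a stricter filter, 161 with no filter, 272 with DESeq2 and 0 to 13 with a library left out. With 0 calls, 1125 genes had an unadjusted p under 0.05 (MeVa2.1.dOVA replicate 3 left out) and 992 did (MeVa2.2 replicate 1 left out). The 2362 genes without overlap stayed 2362 with prior counts of 0.5 and 5, were 2423 with library totals, and 2860 to 5950 with a library of the pair left out. Fewer libraries separate more often by their order alone, so these last counts are not on the same footing. The labels do not say whether a replicate number pairs the samples. Deviations of same-numbered libraries from their line means correlated at 0.0815, 0.640 and 0.521 for replicates 1, 2 and 3. Replicates 2 and 3 thus deviated partly in step across the lines. Blocked by replicate number, the counts were 1084 and 118, and 617 with the block in the pair alone. No named gene changed sign under any alternative run here. Of 169 named genes, 1 lost its call with RLE scaling, 2 with no filter, 6 with a stricter filter and 100 with the pair alone. The pair alone has 4 residual degrees of freedom in place of 8, and its common dispersion was 0.14 in place of 0.121. Leave-out fits have fewer libraries. The cause of these moves was not tested. The SE exceeds 1 on the log2 scale in low genes such as Oas1a, Col15a1 and Sfrp1 and also in abundant ones such as Ifit1 and Dmp1.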

Other observations

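Beside the counts that follow, 1.99% of all tested genes were called. Of 12 tested patterning factors Shox2, a homeobox gene of limb and heart development, rose, at 18.7, 18.6 and 16.1 CPM in MeVa2.2.dOVA and 2.90, 3.94 and 2.96 CPM in MeVa2.2 (log2 fold change 2.44, SE 0.37, adjusted p = 0.0121), and it was free of overlap. In the MeVa2.1 pair its log2 fold change was 1.76. Of 26 neural crest and dedifferentiation genes, Tead4, a partner of YAP, fell, at 31.5, 15.8 and 31.1 CPM in MeVa2.2.dOVA and 58.9, 52.3 and 58.7 CPM in MeVa2.2 (log2 fold change -1.11, SE 0.25, adjusted p = 0.0462). Of 28 hypoxia and glycolysis genes, 2 fell: Adm, the vasodilator adrenomedullin, at 0.369, 0.277 and 0.390 CPM in MeVa2.2.dOVA and 8.13, 3.13 and 2.58 CPM in MeVa2.2 (log2 fold change -3.70, SE 0.72, adjusted p = 0.0296), and the lactate exporter Slc16a3 (log2 fold change -5.06, SE 1.15, adjusted p = 0.0487). Ripk3, the kinase of necroptosis, was the 1 of 27 apoptosis and death receptor genes that fell, at 0.158, 0.0554 and 0.139 CPM in MeVa2.2.dOVA and 4.88, 1.51 and 3.27 CPM in MeVa2.2 (log2 fold change -4.67, SE 0.86, adjusted p = 0.0240). Its libraries did not overlap, and it was called in 8 of the 12 fits with a library left out. Casp4, the inflammatory caspase that senses lipopolysaccharide, was at 38.2, 81.5 and 15.9 CPM in MeVa2.2.dOVA and 9.81, 9.67 and 1.44 CPM in MeVa2.2 and did not pass (log2 fold change 2.70, SE 0.72, adjusted p = 0.0849).

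Other genes among those with the widest gaps belong to no list. Setbp1, a nuclear protein mutated in myeloid disease, was at 58.02, 64.6 and 88.4 CPM in MeVa2.2.dOVA and 13.01, 20.1 and 7.33 CPM in MeVa2.2 (log2 fold change 2.38, SE 0.44, adjusted p = 0.0234). Psrc1, a spindle protein, was at 84.7, 107 and 55.2 CPM in MeVa2.2.dOVA and 24.3, 28.4 and 24.8 CPM in MeVa2.2 (log2 fold change 1.67, SE 0.33, adjusted p = 0.0324). Both were clear of overlap. Ptgfr, a prostaglandin receptor, was at 8.23, 3.77 and 2.67 CPM in MeVa2.2.dOVA and 46.9, 30.9 and 36.7 CPM in MeVa2.2 (log2 fold change -2.98, SE 0.59, adjusted p = 0.0326), and the sialyltransferase gene St3gal1 at 6.17, 1.16 and 2.45 CPM in MeVa2.2.dOVA and 22.1, 20.04 and 30.2 CPM in MeVa2.2 (log2 fold change -2.89, SE 0.49, adjusted p = 0.0189). The axon guidance receptor Unc5b was more abundant and fell, at 122, 98.02 and 96.1 CPM in MeVa2.2.dOVA and 299.9, 244 and 467 CPM in MeVa2.2 (log2 fold change -1.67, SE 0.27, adjusted p = 0.0146). Of 20 NF-kB genes, 24 genes of the integrated stress response and 12 Notch genes none passed the edgeR test. At an unadjusted p under 0.05 these lists had 9, 4 and 0 higher and 0, 0 and 4 lower genes. Over all tested genes 6.7% were higher and 9.73% lower at such a p. With DESeq2 the lists had 2, 2 and 0 higher and 0, 0 and 2 lower genes, where 2.36% and 4.6% of all tested genes were. Positive in fold change were 17, 19 and 5 of their members, with medians of 0.59, 0.30 and -0.91. Calls were spread over the chromosomes with at least 100 tested genes, with 1.15% of tested genes called on chromosome 16 and 2.82% on chromosome 6. The median log2 fold change of a chromosome ran between -0.22 on chromosome 13 and 0.09 on chromosome 6, and it was -0.17 on chromosome 16 and -0.15 on chromosome 14.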
